A study of Mus musculus with 8 samples.

Results

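The glial and immune cell miRNAs of the mouse hippocampus were compared between BTBR T+ Itpr3tf/J (BTBR) and C57BL/6J (B6) mice. The group was set by name as 8 mature miRNAs of microglia, leukocytes and reactive astrocytes, and 7 of them were among the 422 miRNAs of the deposited count table. The member without a row was mmu-miR-223-3p, the miRNA of neutrophils and other myeloid cells. The table lists only miRNAs with at least 1 read in every library, so the level of miR-223-3p was not analysed here. Small RNA was sequenced from 4 mice of each strain, with 1 library per mouse. All were adult males 12 weeks old, anaesthetised with isoflurane before decapitation, with no other treatment described, and each strain is inbred. BTBR mice are studied as a model of autism, carry the strain's own Itpr3tf allele, and differ from B6 mice across the whole genome, so a strain difference cannot be assigned to 1 gene. The hippocampi were punched from brain slices. No perfusion is described, so blood cells can contribute to these libraries, and in bulk tissue fewer cells of a type and less RNA per cell cannot be told apart.

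Mature miRNAs guide Argonaute proteins to transcripts that pair with their seed, the bases 2 to 8 from the 5′ end, and lower the output of those transcripts. miR-142a and miR-150 belong to blood cells, miR-142a to nearly all leukocytes and microglia, and miR-150 to mature lymphocytes above all. miR-155 rises when macrophages and microglia are activated, whereas miR-146a and miR-146b are induced by NF-kB and dampen Toll-like receptor signalling through Traf6 and Irak1. miR-21 is made by many cell types and rises in reactive astrocytes and activated microglia. Because of these roles the group was examined as a possible readout of neuroinflammation. Inflammation itself was not measured, and blood cells and other cell types can add to these levels.

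The mature sequences are shown because shared seeds and near-identical relatives decide which reads can be told apart. They are RefSeq entries of GRCm38.p6, written 5′ to 3′ with the seed in capitals, and 7 of the 8 members matched by name, miR-150-5p being the other.
mmu-miR-21a-5p: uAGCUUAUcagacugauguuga
mmu-miR-21c: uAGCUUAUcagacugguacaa
mmu-miR-21b: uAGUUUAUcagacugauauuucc
mmu-miR-146a-5p: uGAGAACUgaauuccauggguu
mmu-miR-146b-5p: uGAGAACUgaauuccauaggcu
mmu-miR-155-5p: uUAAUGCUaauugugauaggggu
mmu-miR-142a-5p: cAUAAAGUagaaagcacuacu
mmu-miR-142a-3p: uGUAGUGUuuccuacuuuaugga
mmu-miR-223-3p: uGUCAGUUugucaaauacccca

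miR-146a-5p and miR-146b-5p have the same seed and the same first 17 bases, and differ at G18A and U21C, with the miR-146a base first and positions counted from the 5′ end. A read that ends before base 18 therefore fits both. Their loci lie apart, at chr11:43374435-43374456 on the minus strand, outside other annotated genes, and at chr19:46342790-46342811 on the plus strand, in an intron of Mfsd13a. miR-21a-5p, at chr11:86584120-86584141 on the minus strand, lies within an exon of Vmp1 that the annotation gives as UTR in at least 1 transcript. Its first 15 bases are those of miR-21c, which has the same seed, while miR-21b differs from it within the seed at C4U. Both arms of miR-142a come from 1 hairpin in an intron of the noncoding gene Mir142hg, at chr11:87756867-87756887 for the 5p arm and chr11:87756903-87756925 for the 3p arm, 15 bases apart on the plus strand, with Mir142b annotated on the opposite strand. miR-155-5p, at chr16:84714143-84714165, lies in an exon of its noncoding host gene Mir155hg. The hairpin of miR-150 spans chr7:45121757-45121821, outside other annotated genes.

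Reads counted on miRNAs came to 5078301 to 5792967 a library in B6 and 2247482 to 7904990 in BTBR. BTBR replicate 2, the shallowest, stood apart. Its level was the highest or the lowest of the 8 libraries in 51.9% of all 422 miRNAs, against 12.8% to 32.5% in each of the other libraries. Each library was a separate mouse, and no pair of a strain looked like 1 library deposited again, with a chi-square per degree of freedom of at least 81.7 between their counts. Levels are CPM, the count scaled to a common library total after TMM normalization.

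**Figure D1:**
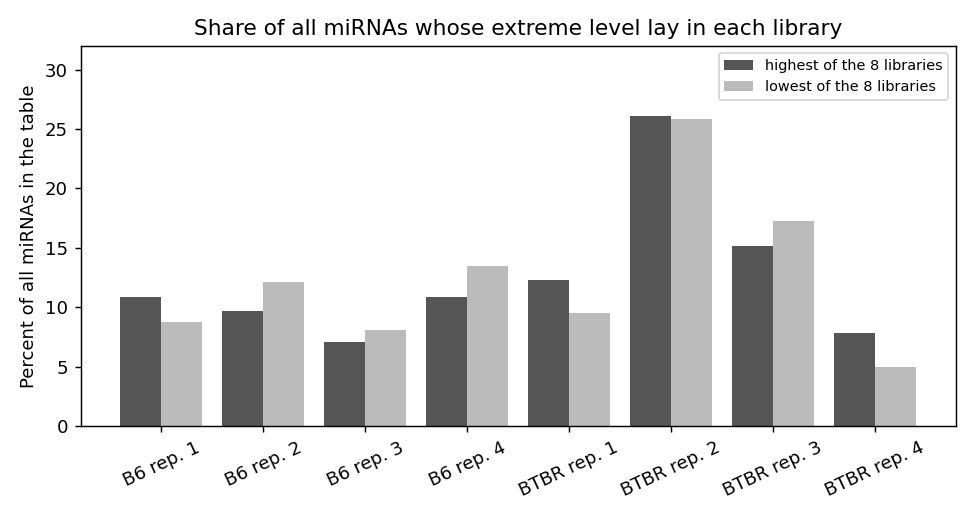
Percent of the 422 miRNAs (y axis) whose highest level (dark bars) or lowest level (light bars) of the 8 libraries lay in each library (x axis). BTBR replicate 2 held 26.1% of the highest and 25.8% of the lowest levels, more than any other library.

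None of the 7 miRNAs was called different between the strains. In edgeR's quasi-likelihood test, with p adjusted over all 422 miRNAs and the study's threshold of 0.1, 0 of 7 passed, beside 1.66% of all miRNAs. The other tests also called 0 of 7, beside 5.65% of all miRNAs given an adjusted p by DESeq2, 3.79% with edgeR's exact test and 1.42% with limma-voom. Without adjustment, 0 of 7 had a p under 0.05, beside 10.9% of all miRNAs. That count was 1 or 2 of 7 under 5 of the other settings on all 8 mice, beside 8.29% to 11.1% of all miRNAs. There miR-21a-5p, miR-146b-5p or both passed, so the count of members depends on the scaling and the model. In 0 of 7 did the strains fail to overlap, beside 6.64%. The log2 fold changes of BTBR over B6 were above 0 in all 7, with a median of 0.24, beside 215 of 422 miRNAs (50.9%) and a median of 0.017 over all miRNAs. Without BTBR replicate 2, 4 of 7 were above 0 and the median was 0.072, beside −0.029 over all miRNAs. In that setting 1 of 7, miR-146a-5p, had an unadjusted p under 0.05, beside 12.3% of all miRNAs, and 2 of 7, miR-146a-5p and miR-142a-5p, did not overlap between the strains, beside 10.7%. With 4 mice a strain, the 95% intervals of the 7 fold changes reached from 1.43 times to 2.07 times away from the estimate, so that moderate differences in either direction could not be detected for the more variable members.

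**Figure D2:**
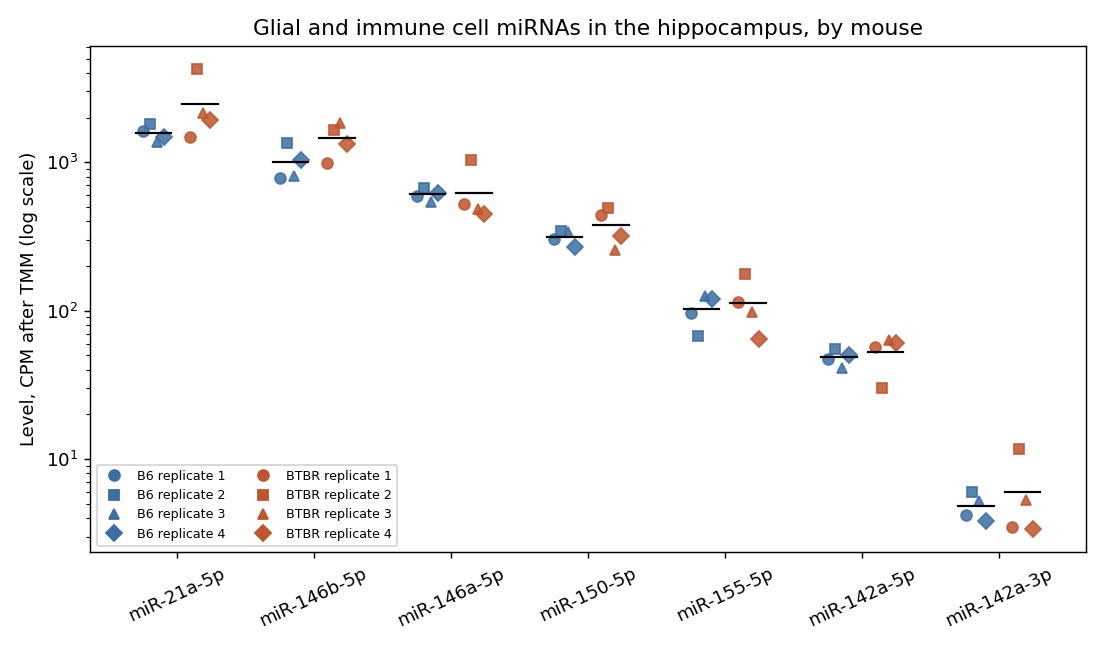
Level of each member in CPM (y axis, log scale) in each of the 4 B6 mice (blue) and 4 BTBR mice (orange), with a marker shape for each replicate number and a black line at the strain mean. The strains overlapped for every member, and the BTBR square (replicate 2) was the highest value for miR-21a-5p, miR-146a-5p, miR-150-5p, miR-155-5p and miR-142a-3p and the lowest for miR-142a-5p.

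miR-21a-5p was the most abundant member, at rank 47 of 422 by mean level. It measured 1630.5, 1811, 1377 and 1484 CPM in B6 replicates 1 to 4, and 1480, 4257, 2163 and 1914 CPM in BTBR replicates 1 to 4. BTBR replicates 2, 3 and 4 lay above all B6 mice, while BTBR replicate 1 lay within the B6 range. The means were 1575 ± 188 CPM for B6 (SD, n = 4) and 2454 ± 1235 CPM for BTBR, and the log2 ratio of BTBR to B6 was 0.64 ± 0.29 (SE) at an adjusted p of 0.451. The 95% interval of the fold ran from 0.996 to 2.43. BTBR replicate 2 alone was 2.30 times the mean of the other BTBR mice. Without it the log2 fold change was 0.21 and the 95% interval of the fold ran from 0.885 to 1.51, with an adjusted p of 0.656 in edgeR's quasi-likelihood test.

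The close relatives of miR-21a-5p were abundant as well. miR-21b had 0.632 to 0.909 times and miR-21c 0.393 to 0.645 times the reads of miR-21a-5p, and the strains overlapped in both ratios. In BTBR replicate 2, miR-21b was 2.01 times and miR-21c 2.55 times the mean of the other BTBR mice. Their log2 fold changes were 0.47 (standard error 0.26, adjusted p = 0.543) and 0.69 (standard error 0.31, adjusted p = 0.451), and 0.12 and 0.20 without that library. A read that ends within the first 15 bases can fit both miR-21a-5p and miR-21c. From the 5′ end, a read without mismatches separates miR-21b at base 4. The methods do not state how reads that fit more than 1 miRNA were divided or whether mismatches were allowed. The level of miR-21a-5p as such is therefore uncertain. The deposited counts hold 4 pairs of miRNAs with the same count in every library, none of them a member. With the reads of all 3 relatives summed, the log2 ratio of BTBR to B6 was 0.60 ± 0.28 (SE) at an adjusted p of 0.460, and it was 0.20 ± 0.14 (SE) without BTBR replicate 2 at an adjusted p of 0.594.

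The NF-kB-induced brake on Toll-like receptor signalling miR-146b-5p had the next largest difference between the strains. It measured 784, 1351, 813 and 1043 CPM in B6 replicates 1 to 4, and 983, 1639, 1844 and 1320 CPM in BTBR replicates 1 to 4. BTBR replicates 2 and 3 lay above all B6 mice, and BTBR replicate 1 lay below B6 replicates 2 and 4. The means were 998 ± 262 CPM (SD, n = 4) and 1447 ± 377 CPM, and the log2 ratio of BTBR to B6 was 0.54 ± 0.25 (SE) at an adjusted p of 0.451, and the 95% interval of the fold ran from 0.994 to 2.12. Its highest level was in BTBR replicate 3. When BTBR replicate 2 was left out the log2 fold change was 0.44, and over 18 alternatives it lay between 0.37 and 0.75 with an adjusted p of at least 0.185.

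miR-146a-5p, which shares its seed with miR-146b-5p, had a mean of 607 ± 54.3 CPM (SD, n = 4) in B6 and of 621 ± 277 CPM in BTBR. It measured 593, 674, 543 and 617 CPM in B6 replicates 1 to 4, and 521, 1034, 483 and 446 CPM in BTBR replicates 1 to 4. BTBR replicates 1, 3 and 4 lay below all B6 mice, and BTBR replicate 2 lay above them all. The log2 ratio of BTBR to B6 was 0.033 ± 0.27 (SE) at an adjusted p of 0.975, with a 95% interval of the fold from 0.68 to 1.54. Leaving that library out turned it to −0.36 (standard error 0.15, unadjusted p = 0.0398, adjusted p = 0.389 in edgeR's quasi-likelihood test), and the mean of the other 3 BTBR mice was 483 ± 38.0 CPM against 607 ± 54.3 CPM in B6. With the reads of miR-146a-5p and miR-146b-5p summed, since short reads fit both, the log2 ratio of BTBR to B6 was 0.37 ± 0.23 (SE) at an adjusted p of 0.605, and it was 0.22 ± 0.20 (SE) without BTBR replicate 2 at an adjusted p of 0.713.

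**Figure D3:**
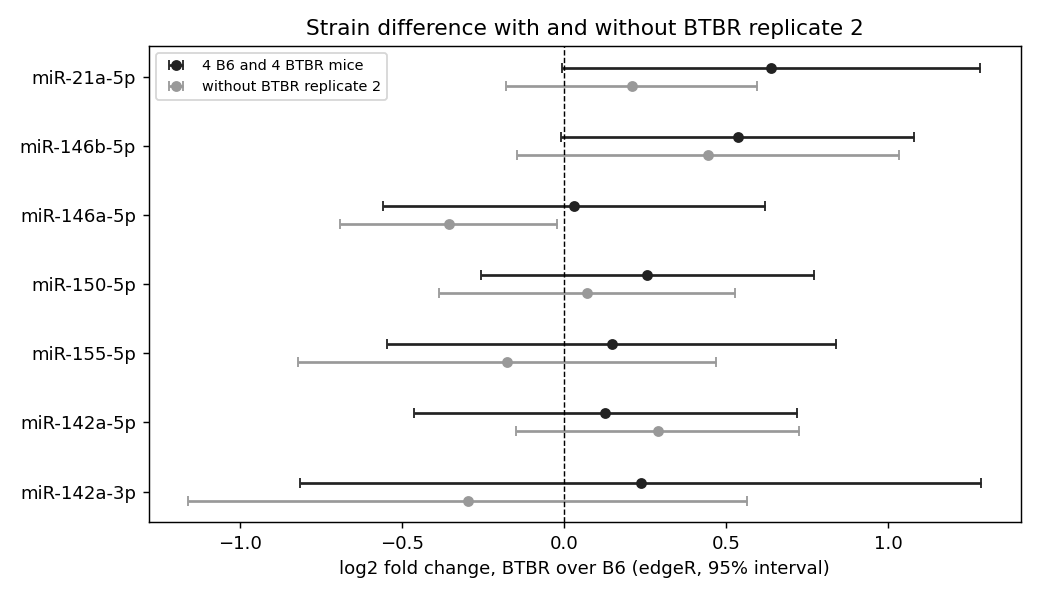
log2 fold change of BTBR over B6 (x axis) of each member (y axis) from edgeR, with its 95% interval, in all 8 mice (black) and without BTBR replicate 2 (grey). The estimates of miR-21a-5p shrank from 0.64 to 0.21 and those of miR-146a-5p, miR-155-5p and miR-142a-3p changed sign.

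The ratio of miR-146b-5p to miR-146a-5p reads does not depend on library scaling. It was 1.32, 2.005, 1.498 and 1.69 in B6 replicates 1 to 4, and 1.88, 1.59, 3.82 and 2.96 in BTBR replicates 1 to 4. BTBR replicates 3 and 4 lay above all B6 mice, while BTBR replicates 1 and 2 lay within the B6 range. The log2 difference of 0.58 (1.498-fold) did not pass an exact permutation test, two-sided and with 70 possible assignments (p = 0.171, adjusted p = 0.343 over the 2 ratios tested, where p = 0.0286 is the smallest possible). The difference was 0.78 without BTBR replicate 2 (exact permutation test, p = 0.0571, adjusted p = 0.114) and 0.36 without BTBR replicate 3 (exact permutation test, p = 0.286, adjusted p = 0.571), the highest and the lowest value on leaving out 1 mouse.

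miR-155-5p, the miRNA most closely tied to activation of macrophages and microglia, measured 95.8, 67.1, 125 and 121 CPM in B6 replicates 1 to 4, and 114, 176, 98.4 and 64.4 CPM in BTBR replicates 1 to 4. BTBR held both the highest and the lowest mouse. The means were 102 ± 26.7 CPM (SD, n = 4) and 113 ± 46.9 CPM, and the log2 ratio of BTBR to B6 was 0.15 ± 0.32 (SE) at an adjusted p of 0.885, and the 95% interval of the fold ran from 0.685 to 1.79. The log2 ratio was −0.18 once BTBR replicate 2 was left out.

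miR-150-5p is known from mature lymphocytes. Its mean over all mice was 345 CPM, against 50.6 CPM for miR-142a-5p and 5.39 CPM for miR-142a-3p, the miRNAs of nearly all leukocytes. Which cells the reads of miR-150-5p came from was not tested. It measured 305, 347, 337 and 269 CPM in B6 replicates 1 to 4, and 438, 493, 254 and 318 CPM in BTBR replicates 1 to 4. BTBR replicates 1 and 2 lay above all B6 mice and BTBR replicate 3 below them all. The means were 314 ± 35.3 CPM (SD, n = 4) and 376 ± 109 CPM, and the log2 ratio of BTBR to B6 was 0.26 ± 0.24 (SE) at an adjusted p of 0.717, and the 95% interval of the fold ran from 0.837 to 1.71. The log2 ratio was 0.072 once BTBR replicate 2 was left out and 0.41 once BTBR replicate 3 was left out, the lowest and the highest value on leaving out 1 mouse.

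miR-142a-5p and miR-142a-3p, from a hairpin transcribed in leukocytes and microglia, were the lowest members. The 5p arm measured 47.0, 55.4, 40.8 and 50.6 CPM in B6 replicates 1 to 4, and 56.9, 30.1, 63.9 and 60.2 CPM in BTBR replicates 1 to 4. BTBR replicates 1, 3 and 4 lay above all B6 mice and BTBR replicate 2 below them all, and the log2 ratio of BTBR to B6 was 0.13 ± 0.27 (SE) at an adjusted p of 0.885, with a 95% interval of the fold from 0.726 to 1.65. The values on leaving out 1 mouse ran from 0.017, without B6 replicate 3 or BTBR replicate 4, to 0.29 without BTBR replicate 2 (standard error 0.19, adjusted p = 0.576 in edgeR's quasi-likelihood test), and the 3 remaining BTBR mice had 60.3 ± 3.47 CPM against 48.4 ± 6.15 CPM in B6.

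The 3p arm rested on 17 to 36 reads a library. It measured 4.22, 6.02, 5.25 and 3.82 CPM in B6 replicates 1 to 4, and 3.49, 11.7, 5.26 and 3.37 CPM in BTBR replicates 1 to 4. The 26 reads of BTBR replicate 2 gave an exact Poisson 95% interval of 7.62 to 17.1 CPM, which covers counting error only. That interval lay above the values of all other mice and overlapped the highest of their intervals, which reached 8.34 CPM. The log2 ratio of BTBR to B6 was 0.24 ± 0.48 (SE) at an adjusted p of 0.885, with a 95% interval of the fold from 0.569 to 2.44, the widest of the 7, and it was −0.30 without BTBR replicate 2.

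The ratio between the arms of miR-142a does not depend on library scaling either. The ratio of 5p to 3p reads was 11.1, 9.19, 7.77 and 13.2 in B6 replicates 1 to 4, and 16.3, 2.58, 12.1 and 17.9 in BTBR replicates 1 to 4. BTBR replicate 2, with the lowest ratio, combined the lowest 5p level and the highest 3p level of all mice. The log2 difference between the strains was −0.053 (exact permutation test, p = 0.971, adjusted p = 0.971). It was 0.58 without BTBR replicate 2 (exact permutation test, p = 0.114, adjusted p = 0.114).

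**Figure D4:**
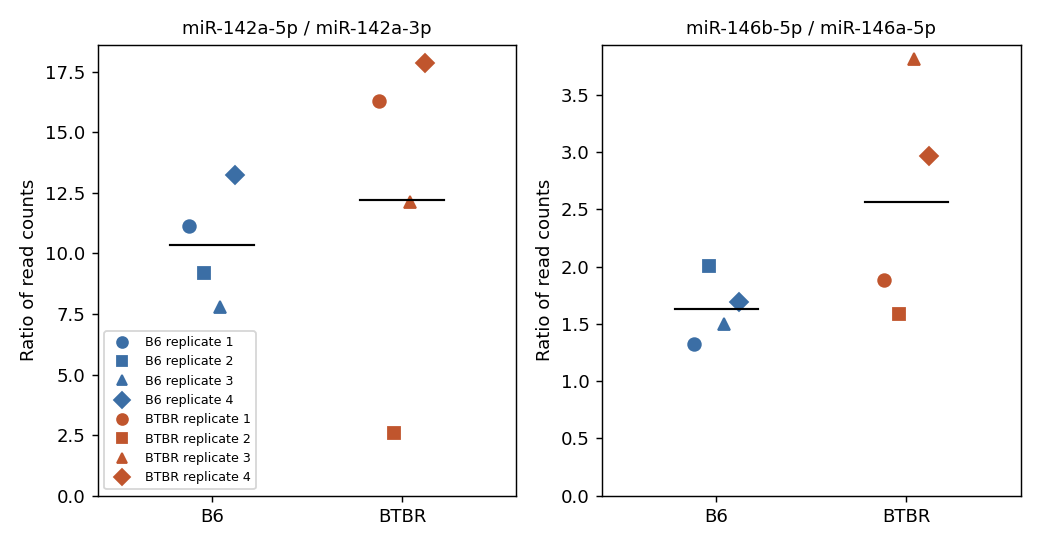
Ratio of read counts (y axes, from 0) of the 2 arms of miR-142a (left) and of miR-146b-5p to miR-146a-5p (right) in each B6 mouse (blue) and BTBR mouse (orange), with a line at the strain mean. BTBR replicate 2 was at 2.58 in the left panel, below all other mice, and BTBR replicates 3 and 4 were above all B6 mice in the right panel.

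The order of the levels was the same in each of the 8 libraries: miR-21a-5p, miR-146b-5p, miR-146a-5p, miR-150-5p, miR-155-5p, miR-142a-5p and miR-142a-3p. Mature lengths are 21 to 23 bases for the 6 with a sequence, so reads can be compared between them without scaling by length, although library preparation does not recover all miRNAs equally well. The mean level of the first was 374 times that of the last. Over the 8 mice, the ranges of miR-21a-5p and miR-146b-5p overlapped, as did those of miR-146b-5p and miR-146a-5p and those of miR-146a-5p and miR-150-5p, whereas the ranges of the later neighbours did not. Together the members took 0.283% to 0.757% of the counts of a library. Their summed level was 3241 to 4310 CPM in B6 mice, 7642 CPM in BTBR replicate 2 and 3598 to 4913 CPM in the other BTBR mice.

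Most members spread more widely among BTBR than among B6 mice, as did most miRNAs. Their median coefficient of variation was 12.7% in B6, beside 23.3% over all 422 miRNAs, and 41.4% in BTBR, beside 32.4%. In 6 of 7 members (85.7%) it was larger in BTBR than in B6, miR-146b-5p being the exception, and the same held for 66.1% of all miRNAs. After leaving out BTBR replicate 2 the median in BTBR was 26.2%, beside 23.7% over all miRNAs.

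Across the 8 libraries, which share their scaling, 15 of the 21 pairs of members had a Pearson's r above 0 on the log2 scale, with a median of 0.44. Without BTBR replicate 2 this was 8 of 21 with a median of −0.10, so that the median above 0 rests on that library. miR-21a-5p and miR-146b-5p were the pair with the highest r without it, 0.87 over 7 libraries, with r = 0.72 over 8 (Spearman's rho 0.81), and r = 0.75 without the 2 libraries farthest from the median of miR-21a-5p. These correlations are descriptions and were not tested.

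For each member the miRNA outside the group with the most similar pattern was found by Pearson's r of log2(CPM + 0.5) over the 8 libraries, as a description with no test, since the highest of many values is chosen. For miR-21a-5p it was miR-148a-3p (r = 0.96, Spearman's rho 0.93, r = 0.76 without the 2 libraries farthest from the median of miR-21a-5p). For miR-146b-5p it was miR-668-3p (r = 0.96, rho 0.98, and 0.92 without the farthest 2), and for miR-146a-5p it was miR-184-3p (r = 0.93, rho 0.88, and 0.65). miR-155-5p was most like miR-139-3p (r = 0.95, rho 0.98, and 0.90) and miR-150-5p most like miR-149-5p (r = 0.93, rho 0.90, and 0.83). miR-142a-5p was most like miR-323-3p (r = 0.95, rho 0.88, and 0.78) and miR-142a-3p most like miR-99b-5p (r = 0.96, rho 0.81, and 0.82).

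Other miRNAs known from leukocytes and inflammation showed no common direction. Of a list of 22, all measured, 0 were called in edgeR's quasi-likelihood test, beside 1.66% of all miRNAs. In that test 1 had an unadjusted p under 0.05, beside 10.9%. The 22 summed to 104436 to 122479 CPM in B6, against 3241 to 4310 CPM for the members. In bulk tissue their reads cannot be assigned to immune cells, so the list does not measure inflammation on its own. A log2 fold change above 0 was found in 10 and below 0 in 12, with a median of −0.016. miR-34a-5p, a target of p53, had the smallest p of those above 0, and its log2 ratio of BTBR to B6 was 1.34 ± 0.45 (SE) at an adjusted p of 0.254. The study, with its own edgeR pipeline and an FDR under 0.1, counts miR-34a among the miRNAs raised in BTBR. miR-15b-5p had the smallest p of those below 0, at −0.49 (standard error 0.26, adjusted p = 0.521).

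Markers of blood and of choroid plexus were examined beside the members. The 6 red blood cell miRNAs hold 5 distinct rows, since miR-486a-5p and miR-486b-5p have the same counts in every library and were taken once. All 5 had a log2 fold change above 0, with a median of 1.19. In edgeR's quasi-likelihood test 4 had an unadjusted p under 0.05, beside 10.9% of all miRNAs. After adjustment 1 was called, beside 1.66% of all miRNAs, and it was miR-451a (log2 ratio 1.38 ± 0.26, SE, adjusted p = 0.0339). Their summed level was 307 to 855 CPM in B6 and 541 to 1376 CPM in BTBR mice. The 4 libraries with the highest sums were BTBR replicates 2, 3 and 4 and B6 replicate 2, at 1376, 1371, 1086 and 855 CPM. These were also the 4 libraries with the highest levels of miR-21a-5p and of miR-146b-5p, the members with the largest differences between the strains. Of the 4 highest libraries of the other members, these made up 3 for miR-142a-5p and miR-142a-3p, 2 for miR-146a-5p and miR-150-5p, and 1 for miR-155-5p. Since 3 of these 4 libraries are BTBR mice, part of any match follows from a difference between the strains. The share over all miRNAs was not counted. Most of each sum was miR-486a-5p, and the 4 highest libraries of miR-451a were instead the 4 BTBR mice. The 7 choroid plexus miRNAs summed to 4282 to 30913 CPM in B6, highest in B6 replicate 1, and to 2893 to 7878 CPM in BTBR, highest in BTBR replicate 2. In edgeR's quasi-likelihood test 0 of 7 were called, beside 1.66% of all miRNAs. In that test 4 had a lower level in BTBR at an unadjusted p under 0.05, beside 10.9% of all miRNAs in either direction. All of these markers had reads in every library. Their part in the values of the immune miRNAs was not tested.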

How the data were processed

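Small RNA libraries (Illumina TruSeq) of 4 BTBR and 4 B6 hippocampi were mapped by the authors with sRNAbench, which runs Bowtie, to GRCm38, and reads lying fully within miRBase v21 coordinates were assigned to that miRNA. The deposited table holds raw whole-number counts for 422 miRNAs. FastQC 0.11.2 is named in the submitters' processing notes. Samples were grouped by strain from their titles. The 8 mice belonged to 1 cohort, bred in a single vivarium from Jackson Laboratory stock and group-housed. Litters and library batches are not given in the sources used here.

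Counts were analysed with edgeR 4.0.16 in R 4.3.3, with TMM normalization and the quasi-likelihood test without covariates or filter, adjusted by Benjamini-Hochberg over the 422 miRNAs (threshold 0.1). A standard error is the absolute log2 ratio over the square root of F, and 95% intervals use the t distribution at the fitted degrees of freedom. limma 3.58.1 and DESeq2 1.42.0 served as alternatives, and the steps were tested on simulated counts. Ratios were compared by exact permutation tests on log2 ratios of counts + 0.5, run in Python 3.11.15. Levels are CPM after TMM. The counts carry no molecular identifiers. Alternatives were other normalizations and tests, a CPM filter, summed relatives, a replicate block, other pseudocounts, a stricter threshold, and leaving out each mouse. Counts at an unadjusted p were also taken under each alternative, and counts without overlap and the summed relatives without BTBR replicate 2, which was chosen after seeing the data. The text gives values for every member of the group, for miR-21b and miR-21c, and for at most the miRNA of the smallest p in each direction of each other list, and names the most similar miRNA of each member. Other miRNAs are named only as the contents of a list. Members and lists were chosen with earlier results of these data known. Places of genes are from GENCODE M21 (GRCm38) and RefSeq (GRCm38.p6).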

Additional observations from a re-analysis of the deposited data

Results flagged for a closer look

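The level of miR-146a-5p in BTBR replicate 2, 1034 CPM, stood apart from the other BTBR mice, at 446 to 521 CPM. The gap to the nearest mouse was 0.871 of the whole range, above Dixon's critical value of 0.829 for 4 samples. It was the only 1 of 18 groups tested that passed, and chance flags about 1 in 20. The same library was also the most distant BTBR mouse, by less than the critical value, for miR-155-5p (0.553), miR-21a-5p (0.754), miR-142a-3p (0.772), miR-142a-5p (0.795, at the low end) and the log2 ratio of the miR-142a arms (0.798, at the low end).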

How the results depend on the processing

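No member was called under any of the alternatives run, and miR-21a-5p, miR-146b-5p, miR-150-5p and miR-142a-5p kept a log2 fold change above 0 under each of them. Over all 422 miRNAs the count of calls, 7, was 21 with the DESeq2 Wald test, 16 with edgeR's exact test, 4 with library size only, 4 at a threshold of 0.05 and 3 with the replicate block, and 3 to 13 on leaving out single mice, with 13 without B6 replicate 2, 4 without BTBR replicate 1, and 3 without BTBR replicate 3 or 4. Replicate numbers did not pair the mice, since the correlations of their deviations lay between −0.15 and 0.05 and not every mouse was most like its own number, and in the block 0 members were called. Below 0 were miR-142a-3p (−0.059) and miR-146a-5p (−0.075) with limma-voom, and miR-146a-5p with the replicate block (−0.054). On leaving out single mice, the log2 fold change lay between −0.30 and 0.42 for miR-142a-3p, between −0.36 and 0.14 for miR-146a-5p, between −0.18 and 0.27 for miR-155-5p, between 0.017 and 0.29 for miR-142a-5p, between 0.072 and 0.41 for miR-150-5p, between 0.21 and 0.82 for miR-21a-5p and between 0.37 and 0.75 for miR-146b-5p, and the log2 difference in the ratio of miR-146b-5p to miR-146a-5p between 0.36 and 0.78 and that in the arm ratio of miR-142a between −0.34 and 0.58, above 0 without B6 replicate 4 (0.072) or BTBR replicate 2. Members with an unadjusted p under 0.05 in edgeR's quasi-likelihood test, 0 as reported, were 2 (miR-21a-5p and miR-146b-5p) with upper quartile normalization or robust dispersion, beside 10.7% of all miRNAs in each. They were 1 (miR-21a-5p) with DESeq2 size factors or library size only, beside 11.1% and 10.4%, and 1 (miR-146b-5p) with the replicate block, beside 8.29%. On leaving out single mice they were 0 to 2, beside 6.87% to 14.7%, with both without BTBR replicate 1, miR-146b-5p without B6 replicate 2 and miR-146a-5p without BTBR replicate 2. By DESeq2, edgeR's exact test and limma-voom they were 0, beside 9.00% to 10.7%. Members without overlap went from 0 to 2 without BTBR replicate 2, beside 6.64% and 10.7% of all miRNAs. The cause was not tested. Scaling by library size only raised the median log2 fold change of all miRNAs by 0.13. A mean of at least 10 CPM left out miR-142a-3p, which rested on 17 to 36 reads a library.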

Other observations

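The lists of the other hippocampal cell types showed no called miRNA in edgeR's quasi-likelihood test, beside 1.66% of all miRNAs. The 4 neuronal miRNAs (miR-124-3p, miR-9-5p, miR-9-3p and miR-128-3p) summed to 47812 to 76067 CPM in B6 and 56573 to 66416 CPM in BTBR mice, with a median log2 fold change of 0.027. The 3 oligodendrocyte miRNAs (miR-219a-5p, miR-219a-2-3p and miR-338-3p) summed to 2238 to 4256 CPM in B6 and 2289 to 2922 CPM in BTBR mice, with a median of −0.34. The 4 miRNAs of endothelium and mural cells (miR-126a-3p, miR-126a-5p, miR-143-3p and miR-145a-5p) summed to 8863 to 13365 CPM in B6 and 6831 to 10686 CPM in BTBR mice, with a median of −0.15. BTBR replicate 2 held the lowest of these vascular sums and the highest sum of the glial and immune cell miRNAs. Without adjustment, 0 of these 11 miRNAs had a p under 0.05 in that test, beside 10.9% of all miRNAs.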
